A study of Homo sapiens with 24 samples.

Results

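The late transcriptional response of MB468 cells to homocysteine medium was measured by comparing the 3 MB468 libraries collected 12 h after the switch to Met-Hcy+ with the 3 MB468 libraries in Met+ (0 h), 6 of the 24 libraries of the series. MB468 (MDA-MB-468) is an established triple-negative breast cancer line that needs Met to proliferate. The 0 h cells were kept in Met+, with 100 µM L-methionine, and the 12 h cells in Met-Hcy+, with 370 µM DL-homocysteine and no Met. The base medium held dialyzed serum, cyanocobalamin, glutamine, and cysteine. MB468res-R8, a clone of MB468 that proliferates in Met-Hcy+, was sampled at the same times in the same media, and its values are given only beside those of MB468. No library came from MB468 kept in Met+ for 12 h or given homocysteine together with Met. Time in culture, the change of medium, loss of Met, and addition of homocysteine therefore cannot be told apart. All 26645 gene entries that are not spike-ins were taken, and the 14741 that passed a filter on low counts were tested.

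Met enters the cell's methyl cycle as S-adenosylmethionine (SAM), the donor for methylation of DNA, RNA, histones, and phospholipids. SAM is made by the MAT enzymes, its product Hcy is methylated back to Met with folate and vitamin B12, and a cell that runs short of SAM can raise the MAT2A transcript through METTL16, an RNA methyltransferase that binds hairpins in the MAT2A 3' UTR. Loss of an amino acid also slows the initiation of translation while particular stress mRNAs continue to be translated.

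The 6 libraries held between 16145793 and 35155038 counts, and 0.201 to 0.289% of these were on spike-in RNAs. Within a group, log2 CPM values (counts relative to the library total, scaled by edgeR's TMM factors) of 2 libraries correlated at 0.997 or more across genes, and between the groups at 0.967 to 0.970. The 100 most abundant genes took 15.9 to 16.1% of the counts at 0 h and 13.3 to 13.5% at 12 h. Under scaling on the spike-ins, whose share of counts was higher in each 12 h library, the median log2 fold change of all tested genes moved from 0.01 to -0.23, and the changes given here are relative to the typical gene. At both times the epithelial genes EPCAM and CDH1 were abundant. PGR had no count in any library, while ESR1 had means of 18.3 CPM at 0 h and 16.1 CPM at 12 h. ERBB2 had means of 84.0 and 78.3 CPM. Among the MB468 libraries at 2 h, used for timing below, library 2 stood apart, with 1752 CPM on RNAs without a poly(A) tail against 17.7 and 14.8 CPM in the other two. Without it the 2 h values given for 14 genes moved by at most 0.52 on the log2 scale, and 1 call, that of ALOXE3, was lost.

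A gene was called at an adjusted p under 0.05 by edgeR (quasi-likelihood test, Benjamini-Hochberg adjustment across the tested genes). Between 0 h and 12 h, 5317 genes were called higher, 36.1% of those tested, and 5113 lower, 34.7%, so that 70.8% of tested genes were called. With a change of at least 2-fold, 7.49% were called higher and 8.46% lower. The 2 groups did not overlap for 74.9% of genes. Most called changes were therefore small, with a median absolute log2 fold change of 0.58. Direction differed between classes of abundance. Among the 221 genes with a mean over 500 CPM, 73.3% were called lower and 17.7% higher. Among the 2324 genes between 100 and 500 CPM, 46.1% were lower and 38.9% higher. Among the 5425 genes between 20 and 100 CPM, 33.2% were lower and 47.6% higher. Falls also outnumbered rises among the 1917 genes under 1 CPM (23.8% lower and 12.3% higher) and the 2145 between 1 and 5 CPM (34.1% and 22.8%). The gene lists below are set beside all tested genes and not beside genes of like abundance.

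**Figure D1:**
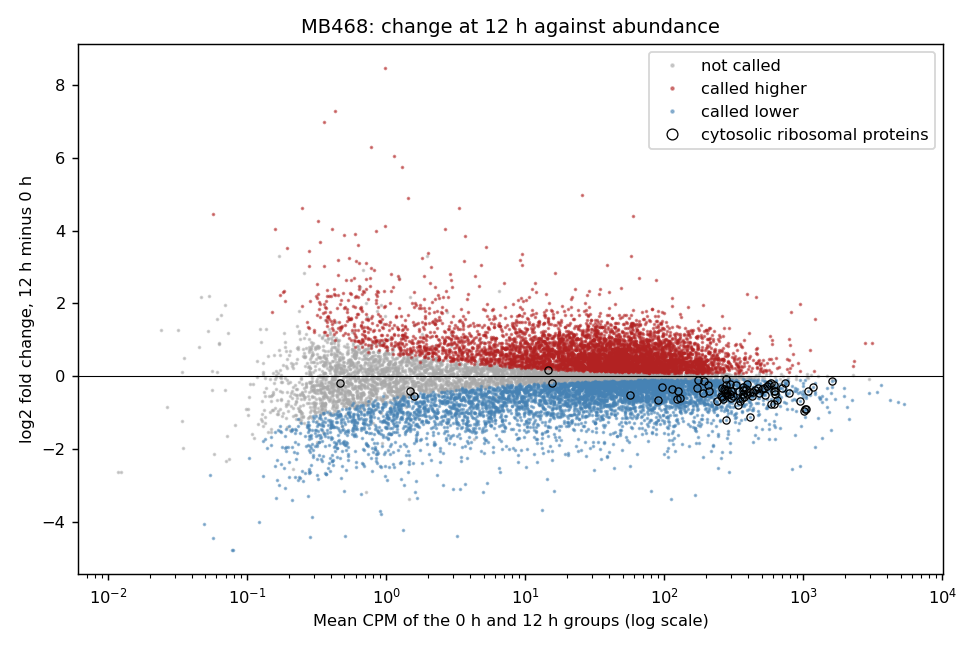
Log2 fold change between 0 h and 12 h in MB468 (vertical axis) against the mean CPM of both groups (horizontal axis, log scale), with 1 point per tested gene, red for genes called higher, blue for genes called lower, and grey for the rest. Open circles are 78 of the 79 tested cytosolic ribosomal protein genes, and 72 were called lower; the most abundant genes lie mostly under 0.

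MAT2A, the enzyme gene that makes SAM from Met, rose with METTL16. The 6 places where its 3' UTR holds the letters TACAGAGAA or TACAGAAAA, the loop sequence that METTL16 is known to bind, are shown here because they are the elements through which its transcript is known to respond to SAM. They were read from the GENCODE transcript on GRCh38, where all 6 lie in exon 9 of 9 on the plus strand of chromosome 2, between 40 and 1350 bases after the stop codon. The 9 letters are in capitals, with 8 bases on either side.
Site 1, chr2:85543804-85543828: gcgtaggcTACAGAGAAgccttcaa
Site 2, chr2:85544591-85544615: tgatgtcaTACAGAGAAgtcacagg
Site 3, chr2:85544776-85544800: ggtgtagcTACAGAGAAaccagctt
Site 4, chr2:85544891-85544915: ggcgtaagTACAGAGAAgccatcac
Site 5, chr2:85545006-85545030: aggtgtccTACAGAAAAaccttggg
Site 6, chr2:85545114-85545138: tggtgtggTACAGAGAAgccagctt
Of 19701 canonical protein-coding transcripts, 7.86% held at least 1 match to these letters on the transcribed strand and 2 held at least 6, MAT2A included. A match is a description of the letters and does not show binding.

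MAT2A had 8616, 8652, and 9040 normalized counts in the 0 h libraries and 33864, 35287, and 34371 in the 12 h libraries. All 12 h libraries lay above all 0 h libraries, and the fold change was 3.94 (log2 fold change 1.98 ± 0.05 SE; edgeR quasi-likelihood adjusted p = 2.10e-29). METTL16 went from 1188, 1284, and 1331 to 3148, 3169, and 3168 normalized counts (2.50-fold; adjusted p = 1.32e-25 from the same edgeR test), again without overlap. Their timing differed in these values: at 2 h MAT2A was already up by 1.06 on the log2 scale, while METTL16 was at -0.12 with an adjusted p = 0.12 from edgeR's test. In MB468res-R8 at 12 h both rose less, with log2 fold changes of 0.64 for MAT2A and 0.67 for METTL16, and the difference between the lines was called for both (edgeR quasi-likelihood adjusted p = 3.48e-19 and 4.98e-11).

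Genes of the methionine cycle and SAM supply did not move as 1 group. Of 23 tested members, MAT2A and METTL16 among them, 8 were called higher and 9 lower, where 36.1% of all genes were called higher and 34.7% lower, with a median log2 fold change of -0.08. Among the enzymes that return Hcy to Met, MTR (methionine synthase) fell from 1502 ± 89.2 to 989 ± 67.1 normalized counts (mean ± SD, n = 3), while MTRR, the reductase that reactivates it, rose from 2063 ± 129 to 4093 ± 56.1. MTR rose in MB468res-R8 at 12 h (log2 fold change 0.24, against -0.61 in MB468). AHCYL1, a relative of the enzyme that splits S-adenosylhomocysteine, had the largest fall of the list (log2 fold change -0.92). Of 17 folate one-carbon enzymes, 5 were called higher and 9 lower.

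The enzymes that place methyl groups on histone lysines were mostly called higher. Of 30 methyltransferases, 21 were called higher and 5 lower, against 36.1% and 34.7% of all genes, and their median log2 fold change was 0.55. With spike-in scaling 15 were called higher and 5 lower, where 2538 of all 14741 tested genes were called higher and 5922 lower. SETD2, which trimethylates histone H3 lysine 36, had 2162, 2205, and 2130 normalized counts at 0 h and 5133, 5249, and 5186 at 12 h (log2 fold change 1.26 ± 0.04 SE; edgeR quasi-likelihood adjusted p = 1.22e-26). NSD1, which dimethylates the same residue, went from 5369, 5712, and 5697 to 13097, 12895, and 12363, a log2 fold change of 1.19. Neither gene's groups overlapped. KMT2A and the H3 lysine 9 enzyme SUV39H1 rose by log2 fold changes of 0.62 and 0.88, whereas EZH2, the catalytic subunit of Polycomb complex 2, was not called (0.08). SMYD3 had the largest fall (-0.75). In MB468res-R8 20 of the 30 were called higher at 12 h, against 30.2% of all genes in that line, with a median of 0.31.

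Of histone lysine demethylases, which remove these marks, 12 of 20 were called higher and 5 lower, against 36.1% and 34.7% of all genes. Their median log2 fold change was 0.26. With spike-in scaling 4 were called higher and 5 lower, where 2538 of all 14741 tested genes were called higher and 5922 lower. KDM4D had the largest rise, from 20.1 ± 7.24 to 115 ± 6.97 normalized counts, and KDM1A, the first lysine demethylase found, fell (log2 fold change -0.43). The linker histone gene H1F0, whose transcript is polyadenylated, rose from 14303, 13091, and 14580 normalized counts to 40740, 40884, and 42961, with no overlap (log2 fold change 1.57; edgeR quasi-likelihood adjusted p = 1.39e-29). In MB468res-R8 H1F0 fell (-0.89). Over the 24 tested polyadenylated and variant histone genes, 7 were called higher and 6 lower; members of the clustered families are near copies whose reads the counting could have split.

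The protein components of the ribosome fell nearly throughout. Of 79 cytosolic ribosomal protein genes, 72 were called lower and 0 higher in edgeR's test, against 34.7% and 36.1% of all genes. Their median log2 fold change was -0.40. Under spike-in scaling 75 were lower and 0 higher, where 5922 of all 14741 tested genes were lower and 2538 higher. Their summed level was 36844, 37650, and 37065 CPM in the 0 h libraries and 26580, 27029, and 27053 CPM in the 12 h libraries. The summed levels of the groups did not overlap. RPL3, of the large subunit, went from 30047, 30238, and 30635 normalized counts to 16529, 16547, and 15722 (log2 fold change -0.90 ± 0.04 SE), and RPS6, of the small subunit, from 28077 ± 281 to 21224 ± 483. RPL7 had the largest fall (-1.20). Many of these genes have processed pseudogenes that could share their reads. At 2 h their median was 0.02 (0.05 without library 2), and in MB468res-R8 at 12 h it was 0.12, with 42 called higher and 1 lower where 30.2% of all genes were called higher and 31.1% lower. The difference between the lines was called for 73 of the 79, all with the higher change in MB468res-R8, against 56.5% of all genes called in either direction.

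Translation factors were lower for 22 of 42 tested members and higher for 8, against 34.7% and 36.1% of all genes. EEF1A1 and EEF2, which deliver aminoacyl-tRNA and move the ribosome along the mRNA, both fell by 0.65 on the log2 scale. EIF2B2, a subunit of the exchange factor for eIF2, had the largest rise (0.57).

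Ribosome biogenesis genes, which make and process ribosomal RNA in the nucleolus, had 40 of 54 members called higher and 6 lower. Their median was 0.24, and 36.1% of all genes were called higher and 34.7% lower. With spike-in scaling 14 were higher and 8 lower, and the median was 0.01. That scaling called 2538 of all 14741 tested genes higher and 5922 lower. NOP2, which methylates 28S ribosomal RNA, rose from 2752 ± 61.8 to 6944 ± 85.5 normalized counts. NCL (nucleolin) rose by 0.43 on the log2 scale and NPM1 (nucleophosmin) fell by 0.62. In MB468res-R8 50 of these biogenesis genes were called higher and 1 lower, against 30.2% and 31.1% of all genes in that line. Of 74 mitochondrial ribosomal protein genes, 40 were called higher and 18 lower with a median of 0.14, which turned to -0.09 with 14 higher and 20 lower under spike-in scaling.

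**Figure D2:**
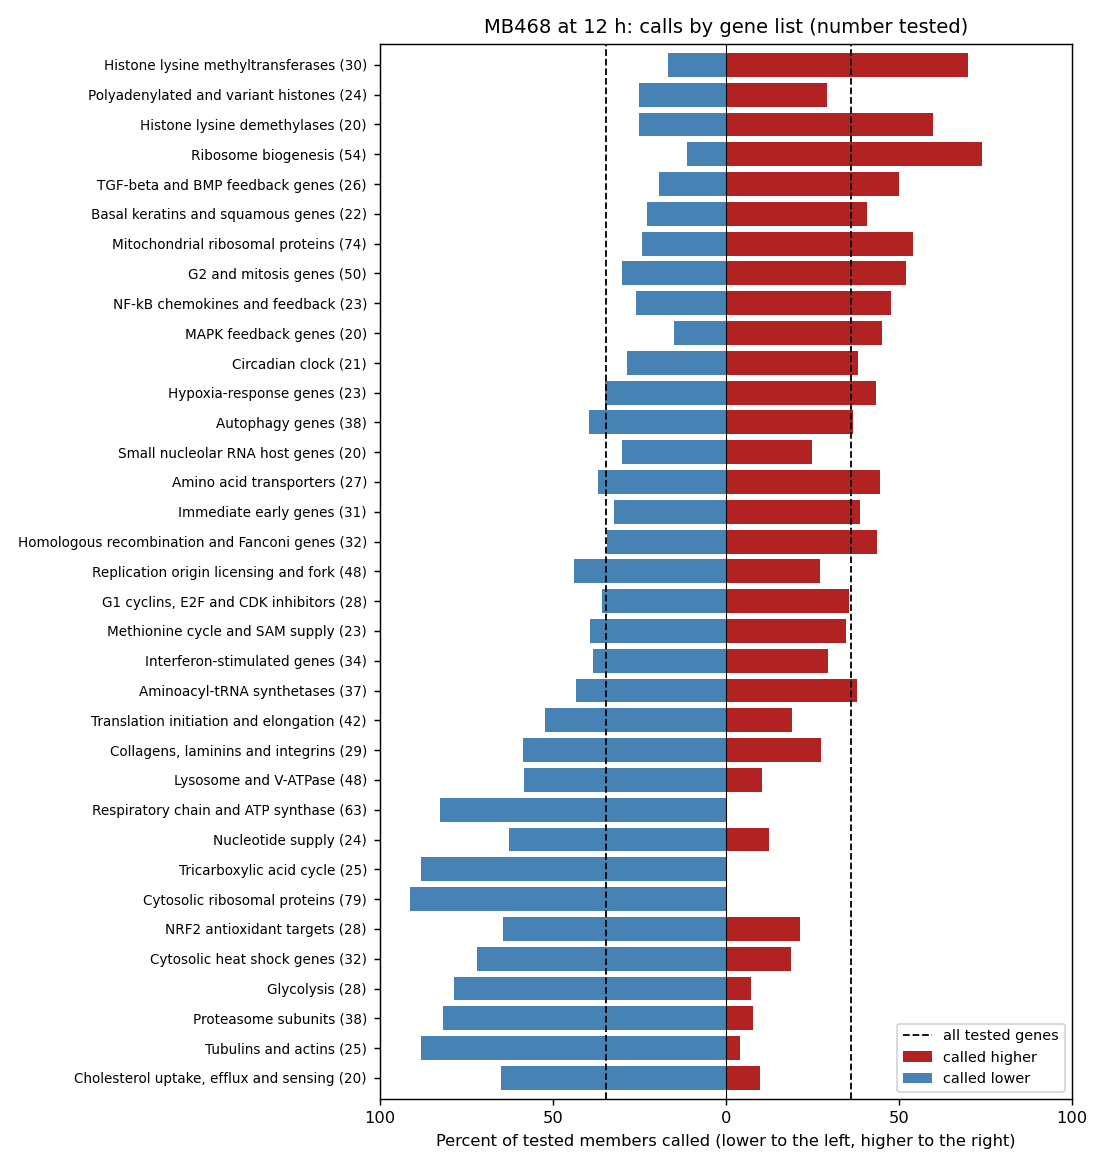
Percent of tested members called higher (red, to the right) or lower (blue, to the left) at 12 h in MB468 for gene lists with at least 20 tested members, with the number tested in parentheses and lists ordered by median log2 fold change. A list of p53 target genes, with 16 of 28 tested members called higher and 10 lower, is not drawn. Dashed lines mark the shares over all tested genes, 36.1% higher and 34.7% lower. The cytosolic ribosomal protein, tricarboxylic acid cycle, and respiratory chain lists have no member called higher.

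Genes of energy metabolism were lower. Of 28 glycolysis genes, 22 were called lower and 2 higher, against 34.7% and 36.1% of all genes. Their median log2 fold change was -0.52, with summed levels of 13266 to 13949 CPM at 0 h and 9266 to 9581 CPM at 12 h. GAPDH, LDHA (lactate dehydrogenase A), and PKM (pyruvate kinase) fell with log2 fold changes of -0.47, -0.63, and -0.58. SLC16A1, a lactate and pyruvate carrier, had the larger of the rises (0.31). Of 25 tricarboxylic acid cycle genes, 22 were called lower and 0 higher in edgeR's test (median -0.34); PC, pyruvate carboxylase, fell most (-1.32) and IDH2, the mitochondrial NADP-dependent isocitrate dehydrogenase, by 1.20 on the log2 scale. Of 63 nuclear genes of the respiratory chain and ATP synthase, 52 were called lower and 0 higher (median -0.29). For these 2 lists, as for the ribosomal proteins, the count of members higher was also 0 at an unadjusted p under 0.05 and in DESeq2's Wald test. In MB468res-R8 the medians of the 3 energy lists were 0.02, 0.01, and 0.03, and the difference between the lines was called toward a higher change in MB468res-R8 for 21 of 28, 23 of 25, and 47 of 63 members, against 56.5% of all genes called in either direction.

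Protein folding and turnover genes were lower as well. Of 38 proteasome genes, 31 were called lower and 3 higher, against 34.7% and 36.1% of all genes, with a median of -0.53. PSMD1, a scaffold of the 19S cap, went from 7051, 7050, and 6400 normalized counts to 3447, 3562, and 3381 (log2 fold change -0.98), and PSME4, an alternative cap, fell most (-1.20). Of 32 cytosolic heat shock genes, 23 were called lower and 6 higher (median -0.51). HSPA8, the constitutive HSP70, had 65456, 69546, and 65925 normalized counts at 0 h and 27527, 30117, and 31833 at 12 h (log2 fold change -1.17 ± 0.06 SE). HSP90AA1 fell by 0.97 on the log2 scale, whereas the co-chaperone DNAJB1 and the regulator HSF1 rose (0.53 and 0.33). In MB468res-R8 HSPA8 rose (0.59). The heat shock list had 21 members called higher and 6 lower there, against 30.2% and 31.1% of all genes in that line.

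The cytoskeleton list showed the same direction, with 22 of 25 tubulin, actin, and actin-associated genes called lower and 1 higher. Its median was -0.55, and over all genes 34.7% were called lower and 36.1% higher. ACTB (beta-actin) fell from 150877 ± 7628 to 89166 ± 2668 normalized counts and TUBA1B, an alpha-tubulin with near-identical copies, from 19594 ± 551 to 8404 ± 421. TUBB4B was the member called higher (0.47). The lysosome and V-ATPase list had 28 of 48 members lower and 5 higher, with the largest fall in ATP6V1A (-1.28), the catalytic subunit of the proton pump, and values of -0.14 and -0.28 for LAMP1 and CTSD, both called lower. Of 28 NRF2 antioxidant targets, 18 were called lower and 6 higher. HMOX1 (heme oxygenase 1) fell by 1.57 on the log2 scale and NQO1 by 0.23, and AKR1C3, one of a set of closely related genes, fell most (-1.91).

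Cell cycle lists are given beside all tested genes, of which 36.1% were called higher and 34.7% lower. Of 24 nucleotide supply genes, 15 were called lower and 3 higher (median -0.29), and IMPDH2, the rate-limiting enzyme of guanine nucleotide synthesis, had 4127, 4055, and 4112 normalized counts at 0 h and 1214, 1259, and 1308 at 12 h. Its log2 fold change was -1.70 ± 0.04 SE (edgeR quasi-likelihood adjusted p = 1.61e-30), and in MB468res-R8 the gene rose (0.45). RRM2, a subunit of ribonucleotide reductase, and TYMS, thymidylate synthase, fell by 0.70 and 0.58 on the log2 scale. Replication genes had 21 of 48 members lower and 13 higher, with PCNA (-0.81) and MCM2 (-0.55) lower and DBF4, the activator of the CDC7 kinase, higher (1.27).

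G2 and mitosis genes had 26 of 50 members higher and 15 lower, against 36.1% and 34.7% of all genes, with a median of 0.14. Under spike-in scaling the median turned to -0.09, with 11 higher and 17 lower. That scaling called 2538 of all 14741 tested genes higher and 5922 lower. CCNF, PLK1, and AURKA rose (log2 fold changes 1.36, 0.49, and 0.67), CCNB1 and CCNB2 fell (-0.24 and -0.75), and CDK1 was not called (-0.08). CDK1 was called lower with spike-in scaling (-0.31), in a fit to the 6 libraries alone (-0.10), with thinned libraries (-0.13), and without MB468 0 h replicate 3 (-0.13). In MB468res-R8 43 of the 50 were called higher, against 30.2% of all genes in that line, with a median of 0.57. The line difference was called toward MB468res-R8 for 36, against 56.5% of all genes called in either direction. Among G1 regulators 10 of 28 were called higher and 10 lower, near the 36.1% and 34.7% of all genes. CCND1 (cyclin D1) rose by 0.59 on the log2 scale and E2F1 was not called (-0.09). E2F1 was called lower with spike-in scaling (-0.33), with thinned libraries (-0.16), and without MB468 12 h replicate 3 (-0.14).

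Single genes of stress and growth arrest went in opposite directions. CDKN1A, which encodes the CDK inhibitor p21, went from 802, 833, and 909 normalized counts to 272, 318, and 317 (log2 fold change -1.49 ± 0.16 SE; edgeR quasi-likelihood adjusted p = 1.43e-07). GADD45A, by contrast, went from 792, 758, and 836 to 1921, 1897, and 1610 (1.19), and SESN2 is among the leading rises. GDF15, a secreted stress cytokine, went from 21.3 ± 1.93 to 71.1 ± 5.50 normalized counts, and in MB468res-R8 it fell (log2 fold change -3.02). FANCF, a single-exon gene of the Fanconi core complex, rose from 360 ± 18.3 to 1202 ± 45.9. The list of homologous recombination and Fanconi genes had 14 of 32 members higher and 11 lower, against 36.1% and 34.7% of all genes.

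The leading genes are the 10 largest rises and 10 largest falls among called genes whose groups did not overlap and whose higher group had a mean of at least 5 CPM. CHAC1, which degrades glutathione, had 113, 131, and 126 normalized counts at 0 h and 2580, 2608, and 2606 at 12 h (log2 fold change 4.40 ± 0.10 SE; edgeR quasi-likelihood adjusted p = 8.88e-30). Its level was already higher at 0.5 h and 2 h (3.46 and 2.95), and at 12 h it fell in MB468res-R8 (-0.34). SESN2, a leucine sensor that restrains mTORC1, went from 205, 174, and 188 to 1659, 1517, and 1532 (3.05), and was also higher at 2 h (2.29).

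CHAC1 is shown with its promoter because it was the most abundant of the leading rises and amino acid loss is known to act on genes through the C/EBP-ATF response element. The RefSeq window on GRCh38.p14, chr15:40953221-40953520 on the plus strand, runs from 250 bases before to 50 after the start. It holds 1 match to TGATGNAAN on the opposite strand, in capitals, which begins 210 bases before the start.
CHAC1: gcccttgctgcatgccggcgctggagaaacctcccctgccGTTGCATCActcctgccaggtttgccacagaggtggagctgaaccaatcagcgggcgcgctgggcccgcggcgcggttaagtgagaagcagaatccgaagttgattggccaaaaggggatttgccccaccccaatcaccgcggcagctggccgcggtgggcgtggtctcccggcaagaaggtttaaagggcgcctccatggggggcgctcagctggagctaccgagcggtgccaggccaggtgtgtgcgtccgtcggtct
The letters on either strand occur in 3.61% of 35116 RefSeq promoter windows of the same length, and nothing here shows that the site is used.

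PKP1, a desmosomal plaque protein, went from 43.1, 33.5, and 39.3 to 395, 429, and 356 normalized counts (log2 fold change 3.35), of which 3.09 was present at 2 h, and it fell in MB468res-R8 (-0.95). KRT6A, a keratin of stressed and wounded epithelium with close copies, rose from 38.6 ± 19.4 to 380 ± 53.7. Here both lines rose, with log2 fold changes of 3.20 in MB468 and 2.37 in MB468res-R8.

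TGM4 (transglutaminase 4), IL1RL1 (the interleukin-33 receptor), ALOXE3 (an epidermal lipoxygenase), and DOCK2 (a RAC activator of blood cells) were near the limit of detection at 0 h. TGM4 had 2.69, 8.76, and 5.62 normalized counts there and 154, 137, and 144 at 12 h. IL1RL1 rose from 11.3 ± 4.87 to 156 ± 9.91, ALOXE3 from 18.6 ± 4.51 to 218 ± 5.59, and DOCK2 from 15.9 ± 6.31 to 148 ± 14.6. Their groups did not overlap, as the rule for leading genes required. None of the 4 but ALOXE3 was called at 2 h (1.06, and 0.82 and not called without library 2). DHRS2, a short-chain dehydrogenase, was the largest of the leading rises (log2 fold change 4.97).

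**Figure D3:**
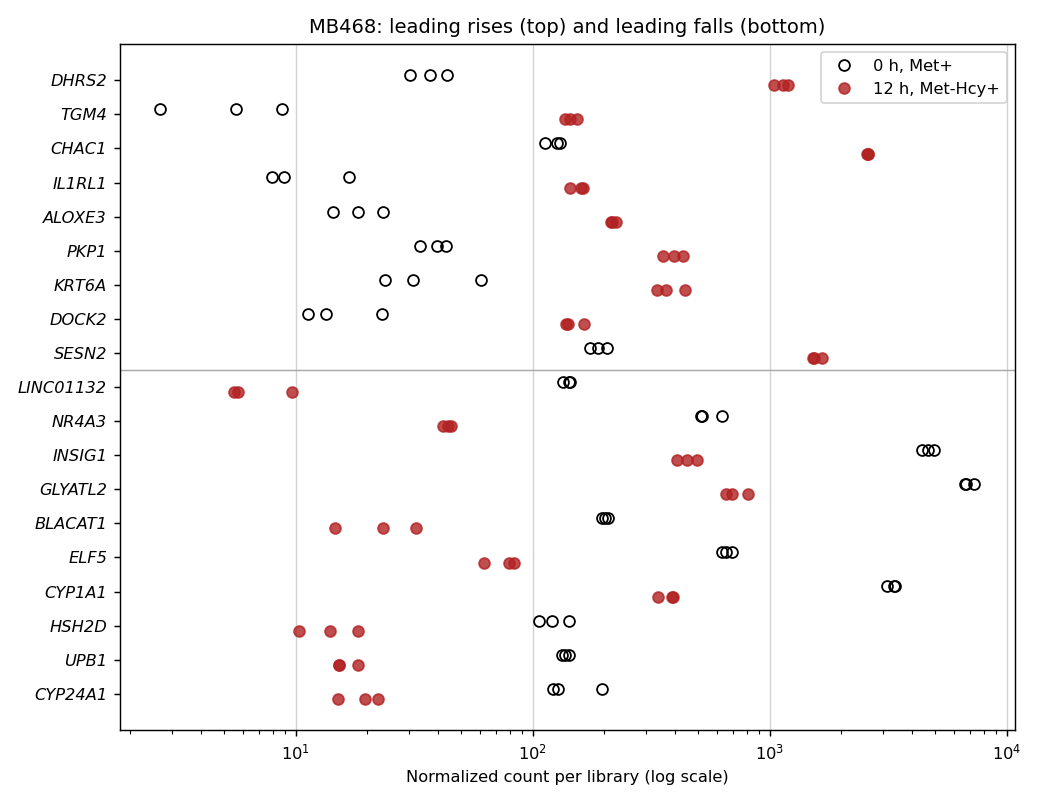
Normalized counts per library (horizontal axis, log scale) of 19 leading genes in MB468, with open circles for the 3 libraries at 0 h in Met+ and red circles for the 3 at 12 h in Met-Hcy+. The groups are apart in each gene because the genes were chosen that way. For example, CHAC1 lies between 113 and 131 at 0 h and between 2580 and 2608 at 12 h.

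The falls included cytochrome P450 genes. CYP1A1, an enzyme induced by the aryl hydrocarbon receptor, had 3337, 3121, and 3384 normalized counts at 0 h and 389, 392, and 339 at 12 h (log2 fold change -3.14 ± 0.07 SE; edgeR quasi-likelihood adjusted p = 2.82e-28). CYP1B1, a second target of the same receptor and one of the 5 largest falls among abundant genes, went from 31984, 31792, and 33047 to 5271, 5565, and 5633 (-2.56). CYP24A1, which inactivates vitamin D, fell from 149 ± 41.6 to 18.9 ± 3.58. At 0.5 h CYP1A1 and CYP1B1 were already lower (-3.56 and -1.40), and in MB468res-R8 they fell as well at 12 h (-4.87 and -1.95).

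GLYATL2, a glycine N-acyltransferase of fatty acyl groups, went from 6763, 7283, and 6641 normalized counts to 655, 691, and 814 (log2 fold change -3.26 ± 0.12 SE; edgeR quasi-likelihood adjusted p = 2.08e-14). ELF5, a transcription factor of luminal progenitor cells of the breast, went from 656, 630, and 697 to 62.3, 79.8, and 83.6 (-3.14), and fell in MB468res-R8 by 2.68 on the log2 scale. UPB1, the last enzyme of pyrimidine breakdown, fell from 137 ± 4.57 to 16.3 ± 1.79, and HSH2D, an adaptor protein, from 123 ± 17.6 to 14.3 ± 4.00. BLACAT1, listed by GENCODE as protein-coding, went from 197, 202, and 208 to 14.7, 32.4, and 23.4. In MB468res-R8 BLACAT1 was not called (-0.12), and the difference between the lines was 3.05. The library kit does not mark strand, so reads from a transcript on the other strand cannot be told from those of BLACAT1 or LINC01132 (-4.39).

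INSIG1 and HMGCS1, genes of sterol control and synthesis, were among the abundant falls (log2 fold changes -3.37 and -2.62). Genes of cholesterol uptake, efflux, and sensing had 13 of 20 members lower and 2 higher, against 34.7% and 36.1% of all genes. Their median was -0.69. Among the abundant rises were those of BAMBI, DDIT4, and CCDC80. BAMBI, a decoy receptor of the TGF-beta family, went from 411, 388, and 385 to 2701, 2463, and 2596 normalized counts (2.71), and DDIT4, an inhibitor of mTORC1, from 3131 ± 160 to 14888 ± 423. CCDC80, a secreted matrix protein, went from 542 ± 21.3 to 3414 ± 253. DDIT4 was higher at 2 h by 1.88 and CCDC80 by 0.25 on the log2 scale, and at 12 h in MB468res-R8 BAMBI and CCDC80 fell (-0.40 and -0.27).

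Of 19 leading genes, the difference between the lines at 12 h was called for 16, against 56.5% of all genes; these genes were chosen for large changes in MB468, and the count is a description. DOCK2, UPB1, and CYP24A1 were the exceptions, with differences of -0.96, 0.19, and 0.00 (edgeR quasi-likelihood adjusted p = 0.61, 0.55, and 0.95).

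Signaling genes had members at both ends. Among 31 immediate early genes, 12 were called higher and 10 lower, against 36.1% and 34.7% of all genes. EGR1 had 994, 966, and 866 normalized counts at 0 h and 4495, 4051, and 4048 at 12 h (log2 fold change 2.15), after a larger difference at 0.5 h (4.97) and 2 h (3.76). IER2 rose by 1.64 and MYC by 0.37, while NR4A3 and NR4A1, nuclear receptors that were higher at 2 h (2.66 and 2.75), were lower at 12 h (-3.68 and -1.58). In MB468res-R8 at 12 h, 28 of the 31 were called lower, against 31.1% of all genes in that line. BMP4, the largest rise of the TGF-beta and BMP list, went from 23.2 ± 7.59 to 196 ± 21.4; 13 of 26 members of that list were higher and 5 lower, with a median of 0.22 that was -0.01 under spike-in scaling.

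Genes of epithelial and breast identity changed in part. Of 17 epithelial genes, 3 were called higher and 12 lower, against 36.1% and 34.7% of all genes. CD24, a cell surface mucin-like protein, went from 15785, 15364, and 14947 to 4728, 5050, and 5171 normalized counts (log2 fold change -1.63), and MUC1 from 1180 ± 54.0 to 338 ± 21.2. EGFR, which this line is known to overexpress, rose from 49744, 50911, and 47813 to 97317, 93114, and 88511 (0.91), the largest rise of the list. EPCAM was not called (-0.01). GATA3, a luminal transcription factor, rose from 772 ± 78.9 to 1911 ± 50.4. Of 22 basal keratin and squamous genes, 9 were higher and 5 lower: KRT5 rose (0.27), and KRT14 and KRT17 fell (-0.48 and -0.53). VIM fell by 0.62 on the log2 scale.

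Markers of other cell types gave no uniform change, where 36.1% of all tested genes were called higher and 34.7% lower. Of 12 endothelial markers 7 passed the filter, with 3 called higher and 3 lower; EMCN and ERG had no count in the 6 libraries, and the summed level was 262 to 296 CPM at 0 h and 149 to 184 CPM at 12 h, nearly all from KDR. The largest rise was that of TEK, an angiopoietin receptor, from 0, 2, and 0 raw counts to 75, 48, and 87. The calls of PECAM1, FLT1, and CDH5, all at or under 2.18 CPM, were each lost without 1 or another library: PECAM1 gave 0.66 without MB468 0 h replicate 1 and 0.64 without MB468 12 h replicate 3, FLT1 lost its call without either of MB468 0 h replicates 1 and 2 or MB468 12 h replicates 1 and 2 (0.65 to 1.11), and CDH5 without replicate 2 of either group (-0.61 and -0.72). Of 12 leukocyte markers 4 were tested, with 1 higher and 2 lower; CD3D, MS4A1, and NKG7 had no count, and the summed level, mostly CD14, was 158 to 173 and 72.0 to 84.8 CPM. The rise was that of ITGAM, an integrin chain, from 1, 1, and 2 raw counts to 36, 18, and 34. Of 10 fibroblast markers 4 were tested, with 1 higher and 2 lower, COL1A2 had no count, and the sum was 34.5 to 35.7 and 17.7 to 18.3 CPM. FAP, a surface protease, rose from 12, 7, and 5 raw counts to 71, 37, and 72, while the fall of PDGFRA (-1.26) lost its call without MB468 0 h replicate 1 or 3 or MB468 12 h replicate 3 (-1.16 to -1.03).

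Genes with few exons rose more often than genes with many. Over 13091 tested protein-coding genes with GENCODE annotation, the 282 with 1 exon had a median log2 fold change of 0.33 and the 609 with 2 exons 0.38, against -0.03 for the 1831 with over 20. A rise of at least 2-fold was called for 19.5, 21.02, and 4.64% of these classes. Falls of at least 2-fold were spread more evenly, at 7.45, 9.36, and 7.48%. The median of genes with 1 or 2 exons, relative to 0 h, was 0.31, 0.29, and 0.31 in the 3 libraries at 12 h and within 0.01 of 0 in those at 0 h. Among genes between 20 and 100 CPM, a comparison chosen after seeing the data, 74.2% of the 271 genes with 1 or 2 exons were called higher and 14.0% lower, and 42.1 and 37.2% of the 2975 with over 8. In MB468res-R8 at 12 h the medians for 1, 2, and over 20 exons were -0.13, -0.06, and -0.03, and in MB468 at 2 h -0.09, -0.06, and 0.02. Under spike-in scaling the medians were 0.12 for 1 or 2 exons and -0.27 for over 8. Exon number was that of the annotation, and intronic reads were not measured here.

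**Figure D4:**
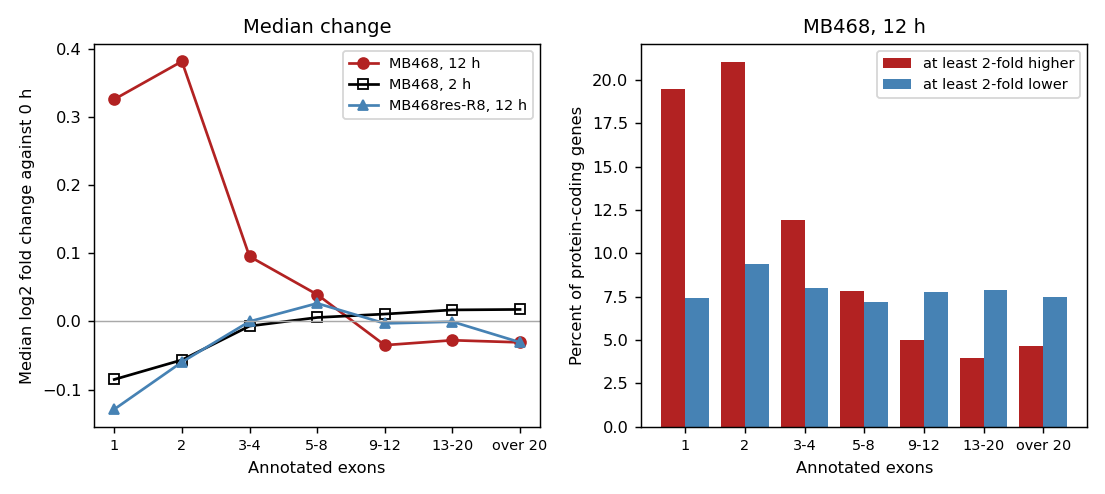
Left, median log2 fold change against 0 h of protein-coding genes by number of annotated exons, for MB468 at 12 h (red circles), MB468 at 2 h (black squares), and MB468res-R8 at 12 h (blue triangles). Right, percent of the same genes called with an at least 2-fold rise (red) or fall (blue) in MB468 at 12 h; the rises go from 19.5% for 1 exon to 4.64% for over 20 exons.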

How the data were processed

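Poly(A) RNA with added ERCC spike-ins was sequenced from 24 libraries. According to the submitters' processing notes and the study's methods, the authors aligned reads with HISAT2 2.1.0 to GRCh38/hg38 joined with the spike-ins and counted them per gene with featureCounts (Subread 1.5.3). The deposited table holds these raw counts. A table of normalized values for part of the libraries and a table of the authors' own fold changes and p-values were not used.

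The tools were edgeR 4.0.16 and limma 3.58.1 in R 4.3.3. Low genes and spike-ins were removed (filterByExpr with a minimum count of 10 and a minimum total of 15), libraries were scaled by TMM, and contrasts came from 1 quasi-likelihood fit to all 8 group means, with robust dispersions. Normalized counts are counts divided by the effective library size and multiplied by its mean. The labels number 3 replicates per group and do not say that they were separate cultures, so p-values measure the spread between these libraries. The code was tested on simulated data.

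Leading genes, the 5 largest rises and 5 largest falls with at least 100 CPM, the largest rise and fall of each of 50 hand-written lists, members with a textbook role, and markers are named. Members and lists were chosen with earlier results of these data known, and the textbook members with their values in view. One of the leading genes and some list members are not reported here. The table lists 4 symbols on 2 rows each, and these rows were kept apart. GENCODE matched 96.4% of tested genes. RefSeq promoters were found for 11531 of 14741 tested genes, under the 80% needed, so a comparison of promoter motifs is void. None of the 15 mitochondrially encoded genes looked for was found under those names.

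Alternatives were DESeq2 1.42.0 size factors and Wald test, spike-in scaling or a spike-in covariate, other filters, fits to fewer libraries, a replicate block, a stricter adjusted p (0.01), a test against a 1.5-fold change, thinning to 11713037 counts, and leaving out each library. The 2 h values without library 2 were added after seeing the data.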

Additional observations from a re-analysis of the deposited data

Results flagged for a closer look

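The change at 12 h differed between the lines for 16 of 19 leading genes by edgeR's test of the difference itself, against 56.5% of all tested genes, given here as the log2 fold change of MB468res-R8 minus that of MB468. Among the genes that rose in MB468 the difference was -5.46 for DHRS2, -3.61 for TGM4, -4.74 for CHAC1, -2.54 for IL1RL1, -2.82 for ALOXE3, -4.30 for PKP1, -0.83 for KRT6A, and -3.22 for SESN2. Among those that fell in MB468 it was 2.63 for LINC01132, 1.06 for INSIG1, 1.40 for GLYATL2, 3.05 for BLACAT1, 0.46 for ELF5, and 1.26 for HSH2D. NR4A3 and CYP1A1 fell further in MB468res-R8, with differences of -2.84 and -1.73. DHRS2, CHAC1, and PKP1 were called in opposite directions in the lines. The genes were chosen for large changes in MB468, so the count is a description. The cause of these differences was not tested.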

How the results depend on the processing

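The number of called genes in MB468 (10430) and of genes called with at least 2-fold (2351) stayed within 1.5 times in most alternatives. Spike-in scaling gave 2538 genes called higher and 5922 lower, so that 30.0% of calls were higher in place of 51.0%, and 649 called rises and 1954 called falls of at least 2-fold. At least 10 counts in every library, which tests fewer low genes, gave 1518 genes called with at least 2-fold and 782 such falls. A test against a 1.5-fold change called 3442 genes, 1781 higher and 1661 lower. Leaving out each library gave 9870 to 10054 calls. The replicate numbers do not pair the samples (correlations of same-numbered deviations -0.08, 0.11, and -0.02); the block fit called 10377 genes, 2340 of them with at least 2-fold, and 16 line differences. The line difference was called for 16 leading genes with DESeq2 size factors, spike-in scaling, the block, and DESeq2's Wald test. It was not counted under the other alternatives. CYP24A1, not called, changed sign under the block (-0.00237) and in DESeq2's Wald test (-0.11).

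Under spike-in scaling the medians of these lists turned negative: basal keratins and squamous genes (-0.0846), G2 and mitosis genes (-0.0932), mitochondrial ribosomal proteins (-0.0901), autophagy genes (-0.19), MAPK feedback genes (-0.11), the MYC, MAX, and MXD network (-0.0398), TGF-beta and BMP feedback (-0.0123), NF-kB chemokines and feedback (-0.10), circadian clock (-0.12), hypoxia response (-0.13), and small nucleolar RNA hosts (-0.19). So did those of immediate early genes (-0.23), amino acid transporters (-0.20), homologous recombination and Fanconi genes (-0.23), and RNAs without a poly(A) tail (-0.06). The medians of these last lists in the main fit, with TMM scaling, were smaller than the spread between libraries. With thinned libraries the medians of autophagy (-0.0154) and MAPK feedback (-0.0165) turned negative. EZH2 (-0.15 with spike-in scaling) and EPCAM (-0.0392 to 0.00734 when each library was left out), neither called, changed sign. Of 3181 values of named genes under alternatives, 3071 kept their direction and side of the threshold, 101 lost their call, and 7 gained one. Spike-in scaling ended the calls of SLC16A1, TUBB4B, PLK1, NCL, HSF1, MYC, and KRT5 (log2 fold changes 0.04 to 0.25). It also ended those of PECAM1 (0.58), FLT1 (0.88), ERAP2 (0.35), FOS (0.25), MDM2 (0.09), and PSMF1 (0.01). Genes near the limit of detection, such as TGM4 and DOCK2 at 0 h, have fold changes that depth limits.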

Other observations

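Other lists held called members in both directions, where 36.1% of all tested genes were called higher and 34.7% lower. The synthetase and autophagy lists lay near these shares. Of 37 aminoacyl-tRNA synthetases, 14 were higher and 16 lower, from PARS2 (log2 fold change 1.49) to QARS (-1.33). Of 27 amino acid transporters, 12 were higher and 10 lower; SLC3A2 and SLC7A5, the chains of a carrier of large neutral amino acids, rose (1.02 and 0.92), SLC7A11, the cystine carrier, fell (-0.72), and SLC6A14 fell most (-1.41). Of 38 autophagy genes, 14 were higher and 15 lower, from ATG101 (1.03) to WIPI1 (-1.27). Of 34 interferon-stimulated genes, 10 were higher and 13 lower: IFIT2 went from 10.7 ± 4.02 to 84.5 ± 12.1 normalized counts and OASL from 68.5 ± 6.68 to 6.49 ± 1.44. Of 10 antigen presentation genes, 1 was higher and 2 lower, B2M among them (-0.33). The higher one, ERAP2 (0.59), lost its call in most fits, among them DESeq2 (0.58), spike-in scaling (0.35), thinned libraries (0.30), and those without any 1 of 5 of the 6 libraries (0.41 to 0.69); DESeq2 called 0 members of this list higher.

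Clock genes had 8 of 21 members higher and 6 lower, with NFIL3 highest (2.24) and PER1 lowest (-0.99). Hypoxia-response genes had 10 of 23 higher and 8 lower, MAPK feedback genes 9 of 20 and 3, NF-kB genes 11 of 23 and 6, with LIF falling most (-2.21), and the MYC, MAX, and MXD network 7 of 13 and 3. EGFR ligands and receptors had 3 of 13 higher and 7 lower, and collagens, laminins, and integrins 8 of 29 and 17. Mesenchymal genes had 3 of 12 and 5, and metallothioneins and zinc transport 2 of 7 and 3. Small nucleolar RNA hosts had 5 of 20 and 6. A list of ARRDC1 to ARRDC3 with the glucose-responsive factors MLXIP and MLXIPL had 0 of 5 and 4. A list of breast receptors and transcription factors had 2 of 4 higher, FOXA1 and GATA3, and 0 lower. Its tested receptors, ESR1 and ERBB2, were not called. All these counts are by edgeR's test, which called 36.1% of all tested genes higher and 34.7% lower. Of 7 tested RNAs without a poly(A) tail, 1 was higher, RNU5A-1 (2.02), and 0 lower. The counts of 0 in these lists were also 0 at an unadjusted p under 0.05 and in DESeq2's Wald test.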
